A study of Mus musculus with 6 samples.

Results

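The genes described here encode the transcription factors that direct osteoblast formation, the Runx family members Runx1, Runx2 and Runx3 with their shared partner Cbfb, the zinc finger factor Sp7 (also called Osterix), and the homeodomain factors Dlx3, Dlx5, Dlx6 and Msx2. These 9 genes were found by matching their symbols to gene IDs in the table of read counts, which held 55487 gene IDs, and all 9 were among the 26596 genes with enough counts to be tested. RNA-Seq had been run on rib cages from 6 mouse embryos at 16.5 days post coitum (dpc), to ask how gene expression responds when Foxc1 and Foxc2, 2 forkhead transcription factor genes, are deleted in chondrocyte progenitors. The 3 control embryos (E420, E434 and E435) were labelled wild type, and the study describes its controls as Cre-negative littermates. The 3 mutant embryos (E423, E433 and E440) were labelled Col2-cre;Foxc1-/-;Foxc2-/-. In these embryos a Cre recombinase under the control of Col2 (type II collagen) regulatory sequence removed the floxed Foxc1 and Foxc2 alleles, on a mixed background from the C57B6 Cre line and the Black Swiss floxed line. Fathers that carried Col2-cre and 1 allele of each gene written as deleted were mated with mothers homozygous for the floxed genes, so by this cross the controls carried floxed alleles as well. Whether the paternal allele was deleted in the germ line was not given. Cre acted in Col2-expressing chondrocyte progenitors and their descendants, and cells of the rib cage outside that lineage were not a target of the Cre. In a reporter cross the study saw Cre activity across the developing skeleton. In the hind limb it included the perichondrium and the primary ossification center as well as chondrocytes of the growth plate. Each library came from 1 embryo, and the litter of each embryo was not given in the sources used here.

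Osteoblasts are the bone-forming cells. RUNX2 binds DNA as a dimer with CBFB, a partner that does not bind DNA itself, and is required for osteoblast formation and for chondrocyte hypertrophy. SP7 acts after RUNX2 and is required for the step from preosteoblast to osteoblast, and DLX5, DLX6, DLX3 and MSX2 are homeodomain proteins that bind similar AT-rich sites and are expressed in skeletal precursors, with DLX3 and MSX2 also prominent in skin and its appendages. RUNX1 and RUNX3 are close relatives of RUNX2 with known roles in blood cell formation, lymphocytes and cartilage.

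The libraries differed in ways the genotype labels did not describe, and every comparison below rests on them. Total counts ran from 37853988 to 47794799 per library. Cartilage genes summed to 26321 CPM (counts scaled to the TMM-adjusted library total) in control E434 and 9548 CPM in mutant E433, and to between 636 and 1995 CPM in the other 4 libraries. Keratinocyte genes summed to 19.7 CPM in E434 and 3597 CPM in E433, against 6302 to 28892 CPM elsewhere. Controls E420 and E435 were close to each other, as were mutants E423 and E440: over 13014 genes, their log2 ratios had an SD of 0.136 and 0.109, against 0.432 to 1.38 for all other pairs. Both close pairs still differed by more than counting noise. Their mean chi-square per gene was 5.78 and 2.32, where 1 would be counting noise alone. A value above 1 cannot show that the libraries of a pair are independent. All 6 libraries were kept as separate samples because each came from 1 embryo. Mutant E433 had 1127 CPM of Xist, the RNA of the inactive X chromosome, and 0.278 CPM of the Y-linked gene Ddx3y, so it was the only library with a female pattern. The deleted genes were lower in every mutant. Values are given throughout with the controls in the order E420, E434, E435 and the mutants in the order E423, E433, E440. The controls had 23.1, 36.9 and 24.2 CPM of Foxc1, against 3.56, 9.61 and 3.51 CPM in the mutants. Type I collagen, the main collagen of bone, and cartilage genes were detected in every library.

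The Runx genes share a short stretch of promoter sequence, shown here because it contains the RUNX recognition letters ACCACA and because the 3 genes that hold it differed in their response. The RefSeq promoter table (GRCm38.p6, 250 bases before to 50 bases after each gene start) held 7 promoters for 5 of the 9 members. Those of Sp7, Dlx3, Dlx5 and Dlx6 were not analysed here. In each window of 30 bases the capitals mark an 18-base run that is identical in the distal promoters of Runx1, Runx2 and Runx3. The Runx3 window is chr4:135120503-135120532 on the plus strand, and its run begins at base −136 from the start. The Runx1 window is chr16:92826025-92826054 on the minus strand, with the run from base 27. The Runx2 window is chr17:44814583-44814612 on the minus strand, with the run from base 22. In the Msx2 window, chr13:53472950-53472979 on the minus strand, the capitals mark TAATTA, letters that homeodomain proteins recognise from base −187.
Runx3 distal promoter: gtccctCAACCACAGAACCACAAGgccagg
Runx1 distal promoter: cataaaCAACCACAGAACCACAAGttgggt
Runx2 promoter: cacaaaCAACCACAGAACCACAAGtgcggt
Msx2 promoter: tgactgctcctgTAATTAactcctaattta

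The 18-base run stood in 4 of 32851 promoters (0.0122%), those of the 3 Runx genes and of Gm16225, a noncoding gene that begins beside Runx3 on the opposite strand. The run was picked after the promoters had been compared, so its rarity is only a description. It holds ACCACA at both ends, and on both strands together Runx2 had 3 copies of ACCACA in its promoter, Runx1 and Runx3 had 2 each in their distal promoters, and Cbfb, Msx2 and the proximal promoters of Runx1 and Runx3 had 0. Among all promoters 16.8% had at least 1 copy and 1.81% had 2 or more. TAATTA was found in the promoter of Msx2 and in 5.29% of all promoters. The forkhead letters GTAAACA were in none of the 7 windows and in 3.65% of all promoters. The GC-box letters GGGCGG, recognised by SP-family factors, were found 4 times in the Cbfb promoter, 3 times in the proximal promoter of Runx3 and 1 time in that of Msx2, with at least 1 copy in 35.7% of all promoters. These matches are letters in a window, and binding was not measured.

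Across the 9 genes, 5 were lower in all 3 mutant libraries than in any control library: Runx2, Cbfb, Sp7, Dlx5 and Dlx6. Over all genes tested, 8.21% were lower in this way and 6.81% were higher in every mutant, which was the case for 0 of the 9 members. The other 4 members, Runx1, Runx3, Dlx3 and Msx2, overlapped between groups. By edgeR's quasi-likelihood test with Benjamini-Hochberg adjustment over all genes, 0 of the 9 passed an adjusted p of 0.1, as did 0.0902% of all genes (24 genes). At an unadjusted p under 0.05, the same fit had 5 members, all lower in the mutants, against 10.6% of all genes at that level and 4.7% lower. By DESeq2, which the authors used, Runx2, Cbfb, Sp7 and Dlx6 passed an adjusted p of 0.1, 4 of 9, all lower, against 3.57% of all genes and 1.42% lower. The median log2 fold change (mutant minus control) was −0.42 over the 9 members and 0.01 over all genes tested. Mutant E433, the library apart from the other mutants, weighed on the edgeR result. Without it, the mutants were only E423 and E440, the closest pair of libraries, so the spread within that group was small. Runx2, Cbfb, Sp7, Dlx5 and Dlx6 then passed in edgeR, 5 of 9 against 13.4% of all genes. DESeq2 then called these 5 and Runx1 lower and Dlx3 higher, 7 of 9 against 21.6% of all genes. With the close libraries summed and E433 kept, edgeR called 0 of the 9 and 0 over all genes. In whole rib cages, fewer cells that express a gene and less of its RNA per cell cannot be told apart.

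**Figure D1:**
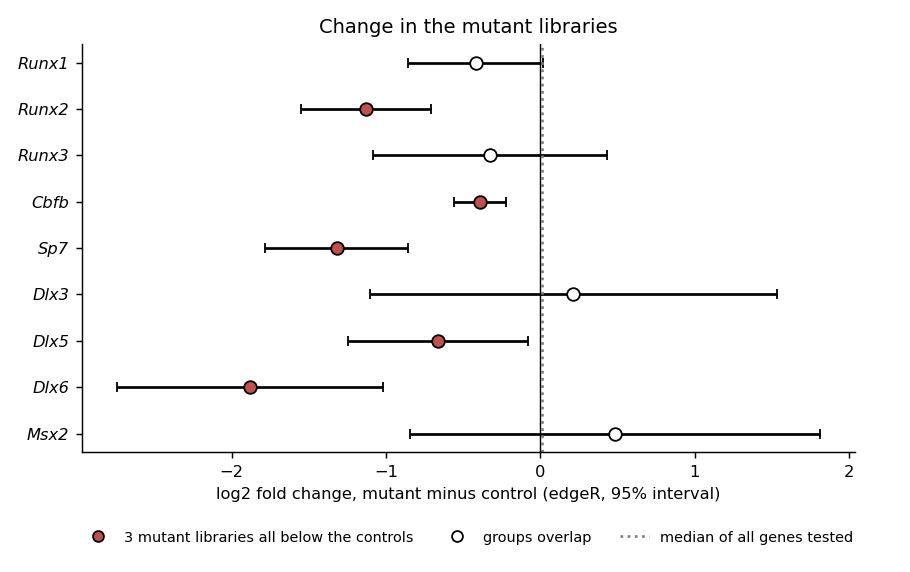
Log2 fold change (mutant minus control, x axis) of each of the 9 genes with its 95% interval from edgeR over 3 control and 3 mutant libraries. Filled points are the 5 genes whose 3 mutant libraries all lay below the controls, open points are the 4 genes whose groups overlapped, and the dotted line is the median of all genes tested (0.01).

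Runx2 (chromosome 17 from 44495987 to 44814797, minus strand, GRCm38) was lower in every mutant. Its level was 34.1, 44.6 and 30.9 CPM in the controls, against 14.7, 19.4 and 15.9 CPM in the mutants. The highest mutant lay well under the lowest control. The mutant mean was 45.6% of the control mean, a log2 fold change of −1.13 (SE 0.18, 95% interval −1.55 to −0.71). The adjusted p was 0.155 by edgeR and 2.63e-06 by DESeq2.

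The other genes of the Runx family showed smaller differences. Runx1 (chromosome 16 from 92601466 to 92826149, minus strand) stood at 19.5, 25.4 and 17.4 CPM in the controls, against 13.8, 18.3 and 14.5 CPM in the mutants. Its groups overlapped by 1 library, since mutant E433 lay above control E435, and the log2 fold change was −0.42 (SE 0.18, 95% interval −0.86 to 0.02, edgeR adjusted p = 0.487). Runx3 (chromosome 4 from 135120652 to 135177990, plus strand) stood at 6.39, 13.6 and 6.37 CPM in the controls, against 6.95, 7.42 and 6.67 CPM in the mutants. All 3 mutants lay between the closely matched controls E420 and E435 and the much higher control E434. The log2 fold change of Runx3 was −0.33 (SE 0.32, 95% interval −1.08 to 0.43, edgeR adjusted p = 0.746), and it was 0.14, in the other direction, without control E434.

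Cbfb (chromosome 8 from 105170674 to 105217989, plus strand), the partner of all 3 RUNX proteins, showed a small and even difference. The control libraries held 149, 152 and 145 CPM, against 109, 119 and 113 CPM in the mutants. The spread within each group was narrow and the groups stood apart. The mutant mean was 76.3% of the control mean, a log2 fold change of −0.39 (SE 0.07, 95% interval −0.56 to −0.22), with an adjusted p of 0.202 by edgeR and 0.00136 by DESeq2.

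Per exon length, Runx2 made up most of the Runx family RNA in the controls and less of it in the mutants. Its share of the summed RPKM (CPM per kilobase of exon) of the 3 Runx genes was 54.8% ± 3.28 (SD, n = 3) in controls and 41.1% ± 1.38 in mutants. The share of Runx1 was 22.9% ± 1.34 in controls and 28.1% ± 0.999 in mutants. The share of Runx3 was 22.3% ± 4.61 and 30.8% ± 2.31. The order of Runx1 and Runx3 depended on the length used, as given below. The Runx2 share lay between 51.1% and 57.1% in the controls and between 39.6% and 42.3% in the mutants, without overlap.

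**Figure D2:**
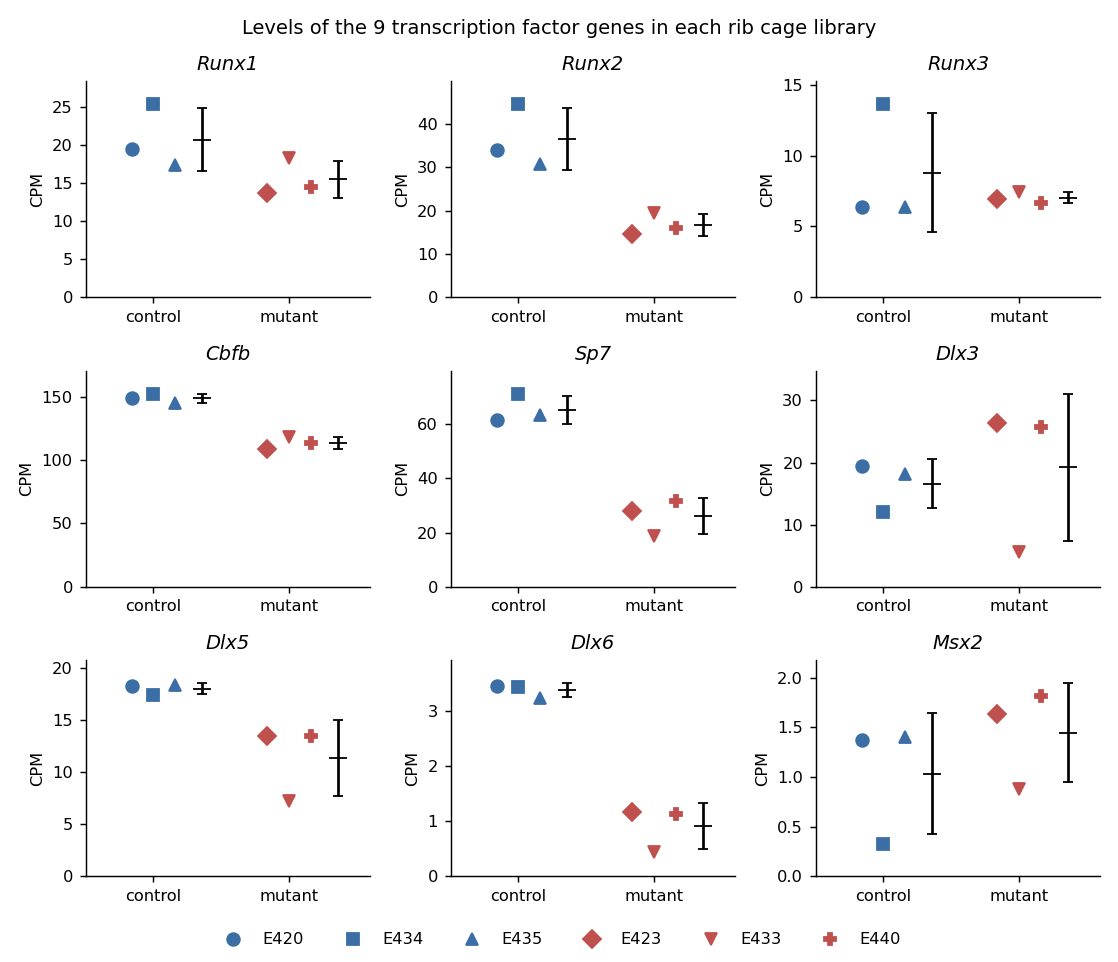
Level of each gene in CPM (y axis from 0) in the 3 control libraries (blue) and the 3 mutant libraries (red), with the group mean and SD in black beside the points. The mutant points of Runx2, Cbfb, Sp7, Dlx5 and Dlx6 all lie below the control points, and E433 is the lowest mutant for Sp7 and for the Dlx and Msx2 genes.

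Sp7 (chromosome 15 from 102356606 to 102367182, minus strand), which acts after Runx2 in osteoblast formation, had the second largest fitted difference of the 9 genes. Its level was 61.4, 71.1 and 63.4 CPM in the controls, against 27.9, 18.8 and 31.7 CPM in the mutants. The groups stood far apart, and E433 was the lowest library. The mutant mean was 40.05% of the control mean and the log2 fold change was −1.32 (SE 0.19, 95% interval −1.79 to −0.86), with an adjusted p of 0.146 by edgeR and 9.47e-08 by DESeq2. Sp7 was also the member that most often passed under the other edgeR settings, with scaling by library totals, with the robust step and without a low-count filter.

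The Dlx5 and Dlx6 genes are neighbours on chromosome 6, pointing toward each other with 9237 bp between their ends, and both were lower in every mutant. Dlx6 (from 6863334 to 6868568, plus strand) stood at 3.46, 3.44 and 3.24 CPM in the controls, against 1.18, 0.441 and 1.13 CPM in the mutants. These levels rested on few reads, 136 to 157 counts per control and 49, 19 and 52 counts in the mutants. The control libraries were almost equal and every mutant was far below them, E433 the lowest. The log2 fold change was −1.88 (SE 0.36, 95% interval −2.74 to −1.02), the largest of the 9, with an adjusted p of 0.235 by edgeR and 4.58e-05 by DESeq2.

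Dlx5 (from 6877805 to 6882085, minus strand) stood at 18.2, 17.4 and 18.3 CPM in the controls, against 13.4, 7.19 and 13.5 CPM in the mutants. The controls were again nearly equal, 2 mutants were moderately lower, and E433 was lower still. The log2 fold change was −0.66 (SE 0.24, 95% interval −1.25 to −0.08), and neither edgeR (adjusted p = 0.437) nor DESeq2 (adjusted p = 0.152) called it. Without mutant E433, which left only the close pair E423 and E440 as mutants, it was −0.41 with an edgeR adjusted p of 0.0504. The 2 neighbours thus differed in size: the mutant mean was 27.1% of the control mean for Dlx6 and 63.2% for Dlx5.

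Dlx3 (chromosome 11 from 95120119 to 95125296, plus strand), a homeodomain factor of both bone and epidermis, did not separate the groups. Its level was 19.5, 12.1 and 18.1 CPM in the controls, against 26.3, 5.52 and 25.8 CPM in the mutants. Mutants E423 and E440 were the 2 highest libraries and mutant E433 the lowest of all 6. The log2 fold change was 0.21 (SE 0.55, 95% interval −1.11 to 1.53, edgeR adjusted p = 0.913), and it was negative without either E423 (−0.080) or E440 (−0.057). Msx2 (chromosome 13 from 53466884 to 53473074, minus strand), another homeodomain factor of bone and skin, stood at 1.37, 0.331 and 1.40 CPM in the controls, against 1.64, 0.882 and 1.82 CPM in the mutants, from 15 to 84 counts per library. Mutants E423 and E440 were the highest, and control E434 the lowest. Its log2 fold change was 0.48 (SE 0.55, 95% interval −0.84 to 1.81, edgeR adjusted p = 0.785), and it was 0.060 without control E434 and 0.77 without control E435.

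The order of the genes by level per exon length also differed between the groups. In the controls the RPKM means ran from Cbfb (42.8 ± 1.004, SD, n = 3) through Sp7 (19.2 ± 1.52), Dlx5 (7.94 ± 0.228), Dlx3 (6.35 ± 1.52), Runx2 (4.13 ± 0.812), Runx3 (1.76 ± 0.837), Runx1 (1.73 ± 0.346) and Dlx6 (1.42 ± 0.0525) to Msx2 (0.316 ± 0.186). Neighbours in that order whose control ranges overlapped were Dlx3 and Runx2, Runx3 and Runx1, and Runx1 and Dlx6. In the mutants the RPKM means were 32.6 ± 1.41 for Cbfb, 7.70 ± 1.95 for Sp7, 7.37 ± 4.55 for Dlx3, 5.02 ± 1.597 for Dlx5, 1.89 ± 0.280 for Runx2, 1.40 ± 0.0758 for Runx3, 1.29 ± 0.202 for Runx1, 0.441 ± 0.152 for Msx2 and 0.385 ± 0.173 for Dlx6. Sp7, Dlx3 and Dlx5 overlapped there, as did Runx3 and Runx1, and Msx2 and Dlx6. Sp7 thus stood clear of the Dlx genes in the control libraries, while its mutant values reached into the ranges of Dlx3. Exon length was the union of all annotated exons, and a gene with long alternative exons stands lower on this scale. In the authors' TPM values, which use the lengths of the transcripts RSEM found in use, the control mean of Dlx6 (5.42 ± 0.186) lay above that of Runx3 (3.42 ± 2.02) and close to that of Runx1 (5.83 ± 1.63), with overlap in control E434.

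**Figure D3:**
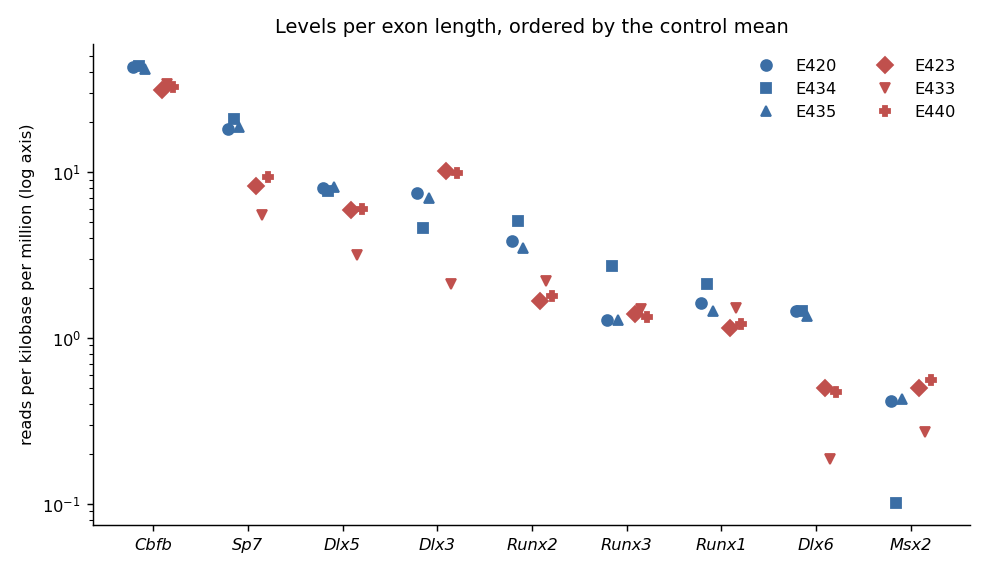
Level of each gene per exon length in each library (RPKM, log axis), controls blue and mutants red, with the genes ordered by their control mean. Cbfb is highest in every library, and the Dlx6 points drop from beside Runx1 in the controls to beside Msx2 in the mutants.

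Ratios between members within a library do not depend on scaling between libraries, and 8 pairs were compared. Runx2 against Runx1 gave the tightest values: the log2 ratio of their CPM was 0.81, 0.81 and 0.83 in the control libraries, against 0.09, 0.09 and 0.13 in the mutant libraries. Both groups were narrow and stood apart although E434 and E433 each differed from their group in cartilage marker level. The difference in means was −0.71. With 3 libraries against 3, the 2-sided exact permutation test cannot give a p below 0.1, which was its value here (0.133 after Benjamini-Hochberg adjustment over the 8 pairs). The groups were apart at the same p, in this exact permutation test, for Runx2 against Runx3 (−0.89), Runx2 against Cbfb (−0.73), Dlx5 against Dlx6 (1.29), Msx2 against Dlx5 (1.40) and Sp7 against Dlx5 (−0.63). The Msx2 to Dlx5 difference was 0.73 without control E434.

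Sp7 and Runx2, in contrast, were lower by similar amounts. The log2 ratio of Sp7 to Runx2 was 0.85, 0.67 and 1.04 in the controls, against 0.93, −0.045 and 0.996 in the mutants. Mutants E423 and E440 lay within the control range, and E433 alone lay below it. The difference in means was −0.23 (exact permutation p = 0.8), and it was 0.11 without E433. Dlx5 against Dlx3 overlapped between the groups as well (−0.66, exact permutation p = 0.3), since control E434 and mutant E433 were both high in this ratio.

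**Figure D4:**
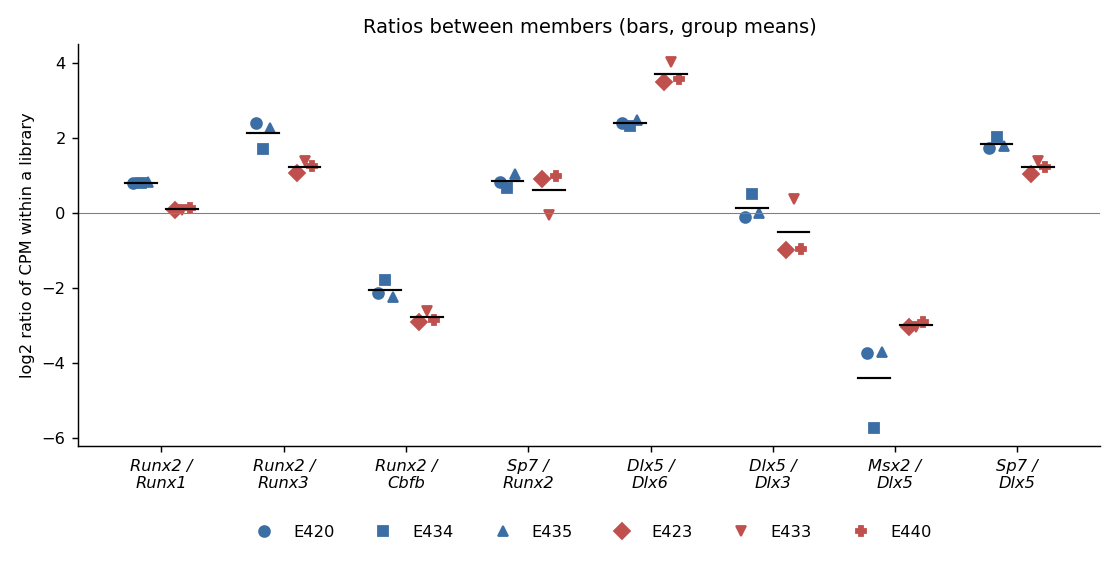
Log2 ratio of the CPM of 2 members within each library (y axis) for 8 pairs, controls blue, mutants red, with a black bar at each group mean. Runx2 / Runx1 lies at 0.81 to 0.83 in the controls and 0.09 to 0.13 in the mutants, and Sp7 / Runx2 overlaps except for mutant E433.

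In the order of the 3 mutants, E433 was the highest mutant for Runx1, Runx2, Runx3 and Cbfb, the 4 genes of the RUNX complex, and the lowest for Sp7, Dlx3, Dlx5, Dlx6 and Msx2. It was the middle mutant for 0 of the 9. Both counts are near the share over all genes: among 16568 genes with a mean of at least 1 CPM, E433 was the lowest mutant for 46.5% and the highest for 43.1%. The distance of E433 from the mean of E423 and E440 was −2.24 on the log2 scale for Dlx3, −1.39 for Dlx6, −0.97 for Msx2, −0.90 for Dlx5 and −0.66 for Sp7, and 0.37 for Runx1, 0.35 for Runx2, 0.12 for Runx3 and 0.09 for Cbfb. Among the controls, E434 was the highest for 5 members and the lowest for 3 (40.3% and 43.6% of those genes), with the largest distances from the other controls for Msx2 (−2.07), Runx3 (1.10) and Dlx3 (−0.64).

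Marker genes of other cell types moved with some of these orders. All 12 keratinocyte markers were lower in E433 than in the other mutants. Their summed level was 6302, 19.7 and 7233 CPM in the controls, against 28826, 3597 and 28892 CPM in the mutants, and the markers Flg and Dsg1a were at 0 in E434. Dlx3, Msx2 and Dlx5 were likewise lower in E434 than in the other controls and lower in E433 than in the other mutants. For Dlx5 the distance among the controls was small (17.4 CPM in E434 against 18.2 and 18.3 CPM). The 12 cartilage markers had the opposite order, with all 12 highest in E433 among the mutants. Hepatocyte markers summed to 635 CPM in E433 and to 30.5 to 50.5 CPM in the other 5 libraries, and all 8 were highest in E433 among the mutants. The 8 osteoclast markers were lower in every mutant, as 8.21% of all genes were. Their sums were 599 to 623 CPM in the controls, against 298, 120 and 290 CPM in the mutants, as for Sp7, Dlx5 and Dlx6 with E433 the lowest. E433 was the lowest mutant for 7 of the 8. The exception, Ctsk (cathepsin K), had 84.0, 86.8 and 87.7 CPM in the mutants, and it passed edgeR's test (log2 fold change −1.26, adjusted p = 0.0999). The 8 adipocyte markers summed to 138 to 150.1 CPM in the controls, against 635, 212 and 652 CPM in the mutants, and of these Lep was at 0 in every control. Haematopoietic markers, of the lineage where Runx1 and Runx3 are best known, summed to 127 to 132 CPM in the controls, against 110.5 to 124 CPM in the mutants, with 6 of the 12 at a positive log2 fold change, 3 lower and 2 higher in every mutant, and a median of 0.08. Muscle markers summed to 12511 to 21440 CPM in the controls, against 16321 to 29230 CPM in the mutants, and tendon and fibrous tissue markers to 3358 to 4522 and 2557 to 3768 CPM. Of these 8 tendon and fibrous tissue markers, 7 had a negative log2 fold change, with a median of −0.51. In every mutant, 4 were lower and 1 higher (8.21% and 6.81% of all genes), and DESeq2 called 4 lower and 1 higher. The part of any of these cell types in the members' differences was not tested. With the mean level of the cartilage markers added to the edgeR fit, Runx2, Cbfb, Sp7 and Dlx6 passed, 4 of 9 against 1.78% of all genes, with log2 fold changes of −0.97, −0.36, −1.43 and −2.14. In that fit Dlx3 was at −0.57 and Runx3 at 0.011, each with the sign opposite to that without the covariate.

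**Figure D5:**
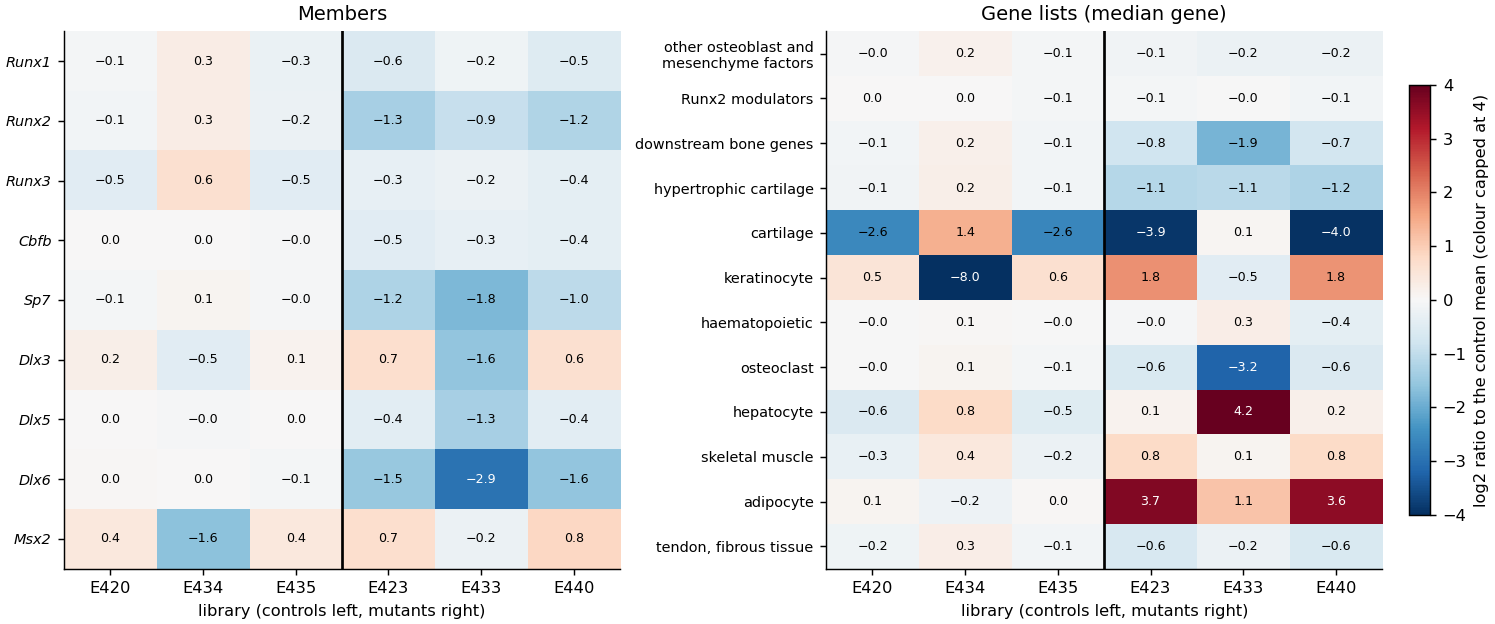
Log2 ratio of each library to the control mean (colour and printed value) for the 9 genes (left) and, as the median gene, for 12 lists of pathway and marker genes (right), with controls left and mutants right of the black line. Sp7, Dlx5 and Dlx6 are lowest in E433, as are the downstream bone genes and the osteoclast markers, while the keratinocyte markers are low in E434 and in E433.

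Other genes of the osteoblast pathway were counted from lists that left out the 9 members. Of 24 other osteoblast and limb mesenchyme transcription factors, 23 were tested (median log2 fold change −0.18). At an unadjusted p under 0.05 in edgeR, which 10.6% of all genes passed and 4.7% passed as lower, 5 of these were lower and 1 higher in the mutants. None passed the adjusted limit in edgeR, and DESeq2 called 1 lower and 1 higher. The higher of these was Twist2, a basic helix-loop-helix factor that restrains RUNX2, with 7.28, 3.42 and 7.03 CPM in the controls, against 14.4, 12.9 and 13.2 CPM in the mutants (1.19, SE 0.29). Of 18 modulators of Runx2, which included histone deacetylases, Smads, TLE corepressors and ubiquitin ligases, 0 had an unadjusted p under 0.05 in edgeR and 0 were called by DESeq2. Their median log2 fold change was −0.04, and Hivep3 (−0.43), Tle2 (−0.36) and Smurf1 (−0.15), given as log2 fold changes, were among the 4 with the smallest p-values.

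Genes that act downstream of Runx2 and Sp7 in bone were mostly lower in the mutants, as the 2 factors were. Of 19 such genes 18 had a negative log2 fold change. At an unadjusted p under 0.05 in edgeR 14 were lower (4.7% of all genes tested). DESeq2 called 13 lower (1.42% of all genes), and 14 were lower in every mutant than in any control (8.21%). Their median log2 fold change was −1.005. Phex, an endopeptidase gene of osteoblasts and osteocytes, was the only one to pass edgeR's adjusted limit, with a log2 fold change of −1.68 (SE 0.12, adjusted p = 0.0775). Others with small p-values were Tnfsf11 (RANKL, −1.78) and Dmp1 (−2.51). E433 was the lowest mutant for 13 of the 19, as it was for Sp7, and the highest for 6, as it was for Runx2. Among all genes with a mean of at least 1 CPM, it was the lowest for 46.5% and the highest for 43.1%. Of 10 genes of hypertrophic cartilage, where RUNX2 also acts, 8 had a negative log2 fold change, with a median of −1.25 (−0.54 without control E434). At an unadjusted p under 0.05 in edgeR 6 were lower (4.7% of all genes tested). The 4 with the smallest p-values were Alpl (−1.68), Panx3 (−0.99), Spp1 (−2.38) and Mmp13 (−2.995), and Alpl, Ibsp, Spp1, Mmp13 and Pth1r stand in both lists. Col10a1, the marker of hypertrophic chondrocytes, had 114, 559 and 113 CPM in the controls, against 75.6, 126 and 73.6 CPM in the mutants.

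Genes next to the members gave no call in edgeR, and DESeq2 called Clic6. Supt3, which overlaps the 5′ part of Runx2 on the other strand without sharing an exon base, had a log2 fold change of −0.16 against −1.13 for Runx2. Aaas and Sp1, on either side of Sp7, had −0.15 and −0.07, and Sdhaf3 beside Dlx5 had −0.16. Aaas and Sdhaf3 were lower in every mutant than in any control, by small amounts, as were 8.21% of all genes tested. Clic6 beside Runx1 had −0.98 (SE 0.21), with all 3 mutants (1.66, 1.46 and 1.28 CPM) below the controls (3.13, 2.29 and 3.24 CPM) and a DESeq2 adjusted p of 0.0129. Clic5 beside Runx2 had 0.77 (SE 0.36) and Itga3 beside Dlx3 had 0.53 (SE 0.45), each with overlapping groups. Counting did not use the strand, so reads from a member and from an antisense gene cannot be told apart where exons overlap. Runx2os1 shares 519 exon bases with Runx2 (5.87% of its exon length) and had 2 to 9 counts per library, against 610 to 2022 for Runx2. Dlx6os2 shares 104 bases with Dlx6 (4.38%) and had 0 to 2 counts. Dlx6os1, the longer antisense RNA at Dlx6, shares no exon base with it and had 49, 41 and 48 counts in the controls, against 28, 6 and 43 counts in the mutants, so E433 was again the lowest. Among the 36 pairs of members, 3 shared any stretch of 42 bases, the read length, and these were 2 to 4 stretches in Runx3, Dlx6 and Msx2.

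The genes whose pattern over the 6 libraries was nearest to a member were found by the root mean square (RMS) difference in log2 ratio to the control mean, among genes with a mean of at least 5 CPM. This is a description over 6 libraries that share the keratinocyte, cartilage and hepatocyte differences given above. Nearest to Runx2 were Grin3a (RMS 0.108), Vipr2, Rspo2, Tnmd and Hhip (0.144). Tnmd encodes tenomodulin of tendon, Rspo2 a Wnt pathway ligand and Hhip a hedgehog-binding protein. Among the 5 nearest to Sp7 were Kazald1 (0.127), Col22a1, Vdr and Slc13a5 (0.135). Vdr encodes the vitamin D receptor and Slc13a5 a citrate transporter. Nearest to Dlx5 were Adamts18 (0.0565), Gpr137b-ps, Insc, Tnfaip2 and Gpr137b (0.0980), of which Gpr137b and the pseudogene Gpr137b-ps are related sequences. Nearest to Runx1 were Pycr1 (0.0466), Slc26a2, Cgnl1, Mxra8 and 1810055G02Rik, and nearest to Cbfb were Gm18541 (0.0153), Ccdc126, Shf, Manea and Zrsr1. Gm18541 is a processed pseudogene, and whether it shares sequence with Cbfb was not tested. In the RSEM counts, 4 of the 5 genes for Runx2, 5 for Sp7, 3 for Dlx5, 1 for Runx1 and 1 for Cbfb were again among the nearest 5. Among the members, Runx2 was nearest to Sp7 (0.382), Runx1 to Cbfb (0.172), and Dlx5 to Cbfb (0.403) and Sp7 (0.469).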

How the data were processed

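RNA-Seq libraries (NEBNext Ultra II Stranded mRNA, paired reads of 42 bases, Illumina NextSeq) were made from rib cages of 3 control and 3 mutant embryos. The authors aligned reads to GRCm38 with HISAT2 2.1.0 and counted them per gene with featureCounts 1.6.0. Per the file headers, these deposited counts hold primary alignments, without strand, so a read mapping to several places kept 1 of them. Both ends of a pair were counted, and reads are not independent molecules, so counting error is understated. In a second pipeline, STAR 2.7.6 and RSEM 1.2.31, the authors also deposited expected counts, rounded here, and TPM with gene lengths. The authors' DESeq2 tables hold their fold changes and p-values with 12 columns of values per sample, and were not used.

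Genes with at least 10 summed counts were tested with edgeR 4.0.16 (quasi-likelihood, TMM scaling, R 4.3.3), mutant against control, with Benjamini-Hochberg adjustment over 26596 genes and a limit of 0.1. DESeq2 1.42.0 was the alternative. CPM are TMM-scaled. Ratios of a library to the control mean had 0.1 CPM added to both terms for the gene lists and the RMS differences. The members' own ratios to the control mean had nothing added. The log2 CPM of the cartilage markers in the covariate used a prior count of 2. RPKM is CPM divided by the union exon length (GENCODE vM21). Separate embryos are the replicates, grouped by the labels. Exact permutation tests used SciPy 1.17.1. In simulated counts on 26120 genes for this comparison, edgeR recovered 17 of 90 genes changed by 1 on the log2 scale and 106 of 110 changed by 2, with 9 other calls. DESeq2 recovered 26 of 90 and 108 of 110, with 32 other calls, so its calls were less strict. The simulation gave all genes the same dispersion and drew the libraries independently, without close pairs like those in the data.

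The 9 members and all lists were chosen with earlier results of these data known. Named genes were the members, Foxc1 and Foxc2, the genes of each list past the limit or the 4 with the smallest p, genes overlapping or next to a member, and the 5 nearest in pattern to Runx2, Sp7, Dlx5, Runx1 and Cbfb; Xist, Ddx3y and Col10a1 were named after their values were seen. Other scalings, filters, limits, a robust step, RSEM counts, summed close libraries, a cartilage covariate and leaving out each library were tried, and DESeq2 without each library was added after the data were seen. Values of a few genes that these rules name are not reported here.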

Additional observations from a re-analysis of the deposited data

How the results depend on the processing

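The number of genes called over all genes was 24 with edgeR. It was 950 with DESeq2, 54 with the robust step, 48 without a low-count filter, 474 with the cartilage covariate, 0 with the close libraries summed, and 0 at limits of 0.05 and 0.01 (2820 genes had an unadjusted p under 0.05). Leaving out each library gave 0 to 3463 genes, with 0 without E420, E435, E423 or E440, 20 without E434 and 3463 without E433. DESeq2 gave 496, 1190 and 464 without E420, E434 and E435, and 371, 5576 and 361 without E423, E433 and E440.

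Of the 9 members edgeR called 0. It called 1 (Sp7) with library totals, 1 (Sp7) with the robust step, 1 (Sp7) without a filter and 4 with the cartilage covariate, and DESeq2 called 4 (Runx2, Cbfb, Sp7 and Dlx6). Leaving out each library gave 0 to 5 in edgeR and 4 to 7 in DESeq2. Both were highest without E433, where the close pair E423 and E440 were the only mutants. The number lower in every mutant was 5 with DESeq2 size factors, with library totals and with RSEM counts. It was 5 or 6 with a library left out or the close libraries summed. Such changes can keep or raise this number but not lower it, so they are no check on it.

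Signs turned for Runx3 (0.011 with the cartilage covariate; without E434, 0.14 in edgeR and DESeq2), for Dlx3 (−0.57 with the covariate; without E423 and E440, −0.080 and −0.057 in edgeR and −0.072 and −0.051 in DESeq2), and for Sp7 against Runx2 (0.11 without E433). Over all libraries left out in turn, these 3 values ran from −0.52 to 0.14, from −0.080 to 0.66 and from −0.41 to 0.11. The cause was not tested. Runx1, Runx2, Cbfb, Sp7, Dlx5, Dlx6 and Msx2 kept their sign in all 21 alternatives. Dlx6 and Msx2 rest on few reads. No paired analysis was possible because the embryo numbers are not shared between groups and the litters are not given.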
